A study of Mus musculus with 12 samples.

Results

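The genes described here are 8 members of the membrane-spanning 4-domains subfamily A (Ms4a) that lie side by side on mouse chromosome 19: Ms4a4a, Ms4a4b, Ms4a4c, Ms4a6b, Ms4a6c, Ms4a6d, Ms4a7 and Ms4a14. They are 8 of the 40760 genes in the deposited count table, and all 8 passed the filter on low counts that left 17418 genes for testing. The set was chosen by name as the myeloid genes of the cluster, and attention was drawn to it by the fall of Ms4a14 between the 2 bleomycin groups. That comparison, libraries labelled Pear1-/- bleo against WT bleo, is therefore given as a description with no test.

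Bulk RNA-seq was made from Pdgfra+ (CD140a+) cells sorted by flow cytometry from the lungs of male mice on a C57BL/6 background. By the study's methods the mice were 8 to 12 weeks old unless otherwise stated. The 4 groups of 3 libraries were WT vehicle (wild-type mice given vehicle), Pear1-/- vehicle (Pear1-/- mice given vehicle), WT bleo (wild-type mice given bleomycin into the airways) and Pear1-/- bleo (Pear1-/- mice given bleomycin). The Pear1-/- mice carry, in every cell, a knockout-first cassette with a splice acceptor, LacZ and Neo inserted in an intron of Pear1, the gene of a receptor on platelets, endothelial cells and fibroblasts. The labels do not say how many mice gave each library or that replicates came from separate mice, so p-values measure the spread between these libraries only. The study's methods give both a lower and a higher dose for its bleomycin model and do not say which dose, or which day of harvest, these libraries stand for.

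Total counts ran from 6702948 to 10447101 per library. The study's methods describe this allele as non-expressive, with the transcript trapped and cut short at the cassette. Whether exons of Pear1 outside the cassette were still counted was not examined. The count over the whole gene was close between the vehicle groups and higher with the label Pear1-/- bleo than in WT bleo. It therefore does not bear out the genotype labels. Pear1 had 547 ± 28.8 normalized counts in the WT vehicle libraries, 519.7 ± 24.0 in those labelled Pear1-/- vehicle, 254 ± 14.0 in WT bleo and 357 ± 14.2 in those labelled Pear1-/- bleo (SD, n = 3). Genotypes are written as labelled. WT vehicle replicate 2 stood apart from its own group. A chi-square of its counts against the other WT vehicle libraries gave 25.2 and 26.02 per degree of freedom, against 1.37 to 5.46 for all other pairs within groups, and 1.81 to 2.92 against the libraries labelled Pear1-/- vehicle. The members' fold changes that rest on it are given with and without it, as are the levels per length of Ms4a6b, Ms4a6d and Ms4a14, the sum of the 8 genes and the share of Ms4a4b. Other levels per length and shares, medians over the members, values of other genes and the correlations include it.

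Most Ms4a proteins cross the membrane 4 times and sit in the surface and endosomal membranes of blood cells. The founding member, Ms4a1, is the B cell antigen CD20, and Ms4a2 is the beta chain of the high-affinity IgE receptor of mast cells and basophils. Ms4a4a, Ms4a6d and Ms4a7 are best known from monocytes and macrophages, where Ms4a4a associates with the beta-glucan receptor dectin-1. Ms4a4b is best known from T cells, so the name myeloid fits it less well than the rest. In fibrotic lung, macrophages recruited from blood monocytes are a main leukocyte population.

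The 8 genes lie within chr19:11301249-11604849 (GRCm38, 303601 bases). This span holds 17 genes of the GENCODE M21 annotation, 10 of them protein-coding: the 8 genes described here, Ms4a4d and Gm8369. Along the chromosome the order is Ms4a14, Ms4a7, Ms4a4a, Ms4a4c, Ms4a4b, Ms4a6c, Ms4a6b and Ms4a6d, with Ms4a14, Ms4a7 and Ms4a6d on the minus strand and the other 5 on the plus strand. Ms4a14 (ENSMUSG00000099398, chr19:11301249-11314454) is the longest by coding sequence, with 3696 coding bases against 651 to 801 in the others. Ms4a7 (ENSMUSG00000024672, chr19:11321039-11336146) is its direct neighbour.

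Sequence decides how well reads can be assigned within such a family. The coding sequences of Ms4a4b and Ms4a4c were 91.7% identical over their alignment, those of Ms4a6b and Ms4a6d 79.8% and those of Ms4a6b and Ms4a6c 74.4%. No 50-base window of the annotated transcripts of Ms4a14 or Ms4a4a was found in the transcripts of another gene, and Ms4a7 shared 0.306% of its windows. Ms4a4c shared 8.19%, nearly all of it with Ms4a4b. Ms4a6c shared 51.4%, mostly with BE692007, a transcript annotated on the opposite strand over 12027 bases of the gene, and because the libraries do not keep strand the reads of these overlapping genes cannot be told apart. BE692007 itself had 1186 counts in all 12 libraries together.

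Promoters are shown for Ms4a14 and Ms4a7, the pair with the largest fold between the bleo groups, and for Ms4a6b and Ms4a6c, which share a stretch with the same motif letters. RefSeq windows (GRCm38.p6) from 250 bases before to 50 after the start were at hand for 7 of the 8 genes, in 8 windows. The windows most alike were those of Ms4a4b and Ms4a4c, 72.3% identical over their alignment against 51.2% for Ms4a6b and Ms4a6c. They were searched on both strands for 5 motifs: PU.1 (GAGGAAGT), C/EBP (TTGCNNAA), an interferon-type element, ISRE (GAAANNGAA), AP-1 (TGANTCA) and a MAF half-site (TGCTGAC). The 250 bases upstream of Ms4a14 (chr19:11314455-11314704, minus strand) hold the AP-1 letters, in capitals, from position -32 relative to the start. The 250 bases upstream of Ms4a7 (chr19:11336147-11336396, minus strand) hold the ISRE letters on the opposite strand, in capitals, from position -71. Both stretches lie outside the exons of their genes.
Ms4a14: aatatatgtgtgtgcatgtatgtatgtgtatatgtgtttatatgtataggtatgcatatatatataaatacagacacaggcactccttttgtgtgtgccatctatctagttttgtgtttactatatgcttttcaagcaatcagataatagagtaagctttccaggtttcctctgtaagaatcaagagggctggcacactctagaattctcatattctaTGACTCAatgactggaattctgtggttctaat
Ms4a7: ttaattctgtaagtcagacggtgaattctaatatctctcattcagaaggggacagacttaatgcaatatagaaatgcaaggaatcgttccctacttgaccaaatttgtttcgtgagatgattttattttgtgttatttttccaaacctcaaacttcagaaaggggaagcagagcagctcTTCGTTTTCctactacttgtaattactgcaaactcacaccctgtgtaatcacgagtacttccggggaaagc

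The Ms4a6b and Ms4a6c stretches lie on the plus strand at chr19:11518313-11518401, in an intron of the longest Ms4a6b model, and chr19:11469195-11469283, upstream of Ms4a6c. Of their 89 bases, 72 were identical position by position, and both hold the same ISRE letters, in capitals.
Ms4a6b: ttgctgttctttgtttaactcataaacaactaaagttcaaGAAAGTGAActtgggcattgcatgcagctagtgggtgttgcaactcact
Ms4a6c: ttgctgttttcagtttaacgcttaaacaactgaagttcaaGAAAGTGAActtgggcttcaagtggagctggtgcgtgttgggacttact
A second RefSeq start of Ms4a7 had ISRE and AP-1 letters, Ms4a4b had AP-1 letters, and the windows of Ms4a4a and Ms4a4c held none of the 5 motifs. No window held the PU.1, C/EBP or MAF letters. Among 32851 promoter windows of the same length, 8.56% held the ISRE letters, 7.81% the AP-1 letters, 10.8% the C/EBP letters, 4.67% the MAF letters and 3.20% the PU.1 letters. These matches describe letters only.

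Values below are the deposited normalized counts, which are raw counts divided by a size factor of the library. Ms4a14 was low without bleomycin and had the largest ratio of its highest to its lowest group mean among these genes. WT vehicle replicates 1 to 3 had 36.4, 14.2 and 48.1 normalized counts, and the libraries labelled Pear1-/- vehicle had 13.3, 13.9 and 10.9. It had 375, 406 and 397 in WT bleo and 63.9, 56.7 and 42.9 in the libraries labelled Pear1-/- bleo. The WT bleo libraries stood above all 9 others, and WT vehicle replicate 2 lay beside the libraries labelled Pear1-/- vehicle.

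Ms4a7, a macrophage member of the family, reached the highest counts. WT vehicle had 103, 132 and 121 normalized counts, and the libraries labelled Pear1-/- vehicle had 113, 144 and 138. WT bleo had 2863, 2809 and 2849.9, and the libraries labelled Pear1-/- bleo had 461, 481 and 503. The 3 WT bleo libraries lay close together and far above the rest, and the vehicle groups overlapped.

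Ms4a6d, a macrophage protein that associates with the complement receptor Vsig4, was high in both bleo groups. Its values were 95.8, 109 and 136 in WT vehicle, 118, 121 and 91.7 in those labelled Pear1-/- vehicle, 1694, 1572 and 1604 in WT bleo, and 1123, 1115 and 1086 in those labelled Pear1-/- bleo. The bleo groups did not overlap each other or the vehicle groups.

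Ms4a6c and Ms4a6b are close relatives of Ms4a6d. Ms4a6c had 65.5, 115 and 81.3 normalized counts in WT vehicle, 118, 119 and 128 in those labelled Pear1-/- vehicle, 996, 1085 and 1038 in WT bleo, and 516, 518 and 492 in those labelled Pear1-/- bleo. Ms4a6b had 359, 517 and 305 in WT vehicle, 539, 569.6 and 474 in those labelled Pear1-/- vehicle, 1053, 982 and 968 in WT bleo, and 589, 552 and 592 in those labelled Pear1-/- bleo. Ms4a6b was already high with vehicle, and its libraries labelled Pear1-/- overlapped between vehicle and bleo.

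Ms4a4a had 48.5, 44.6 and 42.4 normalized counts in WT vehicle, 39.8, 57.5 and 43.7 in those labelled Pear1-/- vehicle, 239, 246 and 243 in WT bleo, and 277, 302 and 298 in those labelled Pear1-/- bleo. It was the one member whose counts were higher with the label Pear1-/- bleo than with WT bleo, without overlap. Ms4a4c had 77.6, 109.6 and 75.6 in WT vehicle, 100.4, 109 and 68.8 in those labelled Pear1-/- vehicle, 329.7, 360.0 and 345 in WT bleo, and 263, 242 and 264 in those labelled Pear1-/- bleo. Its bleo groups lay above its vehicle groups and did not overlap each other.

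Ms4a4b, the T cell member, was called lower with bleomycin in the mice labelled Pear1-/- and was not called in WT. It had 201, 405 and 251 normalized counts in WT vehicle, 462, 470.3 and 397 in those labelled Pear1-/- vehicle, 217, 210.1 and 237 in WT bleo, and 107, 98.0 and 104 in those labelled Pear1-/- bleo. The libraries labelled Pear1-/- bleo were the lowest of the 12, and WT vehicle replicate 2 was again beside the libraries labelled Pear1-/- vehicle.

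**Figure D1:**
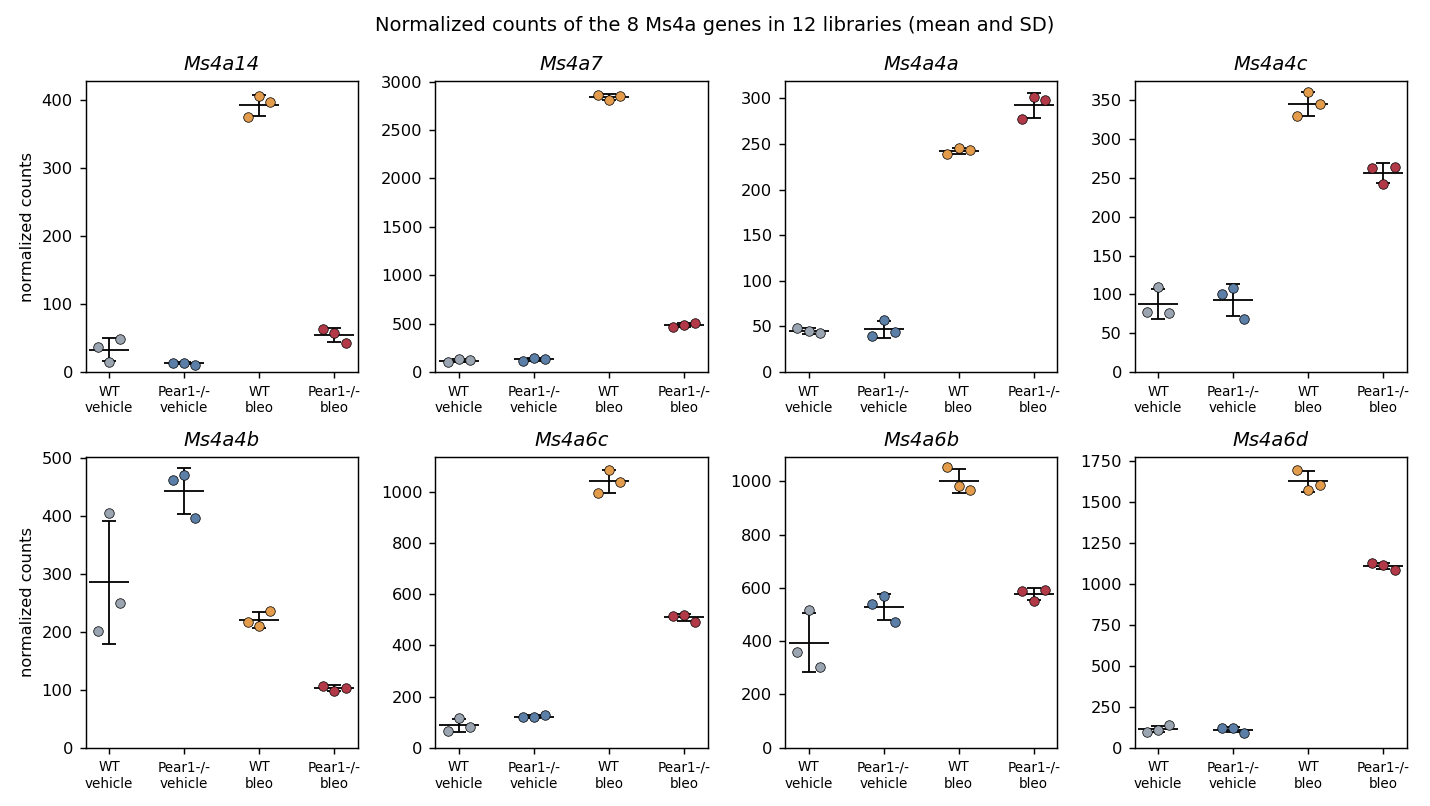
Normalized counts (y axes, from 0, each gene on its own scale) of the 8 Ms4a genes in the 4 groups (x axes); points are libraries, bars the mean and SD of 3. The WT bleo libraries stand highest for 6 genes and those labelled Pear1-/- bleo for Ms4a4a; for Ms4a4b the mean is highest in those labelled Pear1-/- vehicle, whose range overlaps with WT vehicle.

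Per length the order of the genes differed between conditions. In CPM (counts scaled to library size) per kilobase of merged exon, the levels in WT bleo were 106 ± 4.04 for Ms4a6d, 72.4 ± 0.767 for Ms4a7, 57.6 ± 2.47 for Ms4a6c, 32.9 ± 0.504 for Ms4a4a, 25.3 ± 1.12 for Ms4a6b, 22.4 ± 0.991 for Ms4a4c, 10.96 ± 0.458 for Ms4a14 and 2.86 ± 0.187 for Ms4a4b (SD, n = 3). No neighbours in this order overlapped. In the libraries labelled Pear1-/- bleo the order was Ms4a6d at 71.9, Ms4a4a at 39.3, Ms4a6c at 27.9, Ms4a4c at 16.5, Ms4a6b at 14.5, Ms4a7 at 12.2, Ms4a14 at 1.51 and Ms4a4b at 1.32, and Ms4a14 and Ms4a4b overlapped. Ms4a7 thus stood at rank 2 in WT bleo and rank 6 in those labelled Pear1-/- bleo. In both vehicle groups Ms4a6b was highest, at 9.88 ± 2.73 in WT and 13.2 ± 1.21 in those labelled Pear1-/-, and Ms4a14 lowest, at 0.913 ± 0.480 and 0.350 ± 0.0432. Without WT vehicle replicate 2, the other WT vehicle libraries had 9.02 and 7.68 for Ms4a6b, 6.22 and 8.88 for Ms4a6d, and 1.009 and 1.34 for Ms4a14, so that Ms4a6b was not highest in both. In WT vehicle every neighbour from Ms4a6b down to Ms4a7 overlapped the next.

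Bleomycin against vehicle in wild-type mice asks how the sorted cells differ in the injured lung. Of the 8 genes, 7 rose: Ms4a7, Ms4a6d, Ms4a14, Ms4a6c, Ms4a4a, Ms4a4c and Ms4a6b. A gene was called where edgeR's quasi-likelihood test gave a Benjamini-Hochberg adjusted p under 0.05 over all genes tested and the fold was above 2. Among all genes tested 10.5% were called higher. In these bulk libraries, fewer cells of a type and less RNA per cell cannot be told apart. The group WT bleo is also part of the comparison that drew attention to the set.

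Ms4a7 was 24.0-fold higher in WT bleo, a log2 fold change of 4.59 (SE 0.0984, edgeR adjusted p = 1.22e-17). Ms4a6d was 14.4-fold higher (3.85, SE 0.109, edgeR adjusted p = 4.32e-16), Ms4a14 12.2-fold (3.61, SE 0.223, edgeR adjusted p = 1.86e-10) and Ms4a6c 11.9-fold (3.57, SE 0.123, edgeR adjusted p = 6.84e-15). Smaller rises were seen for Ms4a4a (log2 fold change 2.43), Ms4a4c (1.98) and Ms4a6b (1.35, edgeR adjusted p = 4.76e-07). Ms4a4b had a log2 fold change of -0.37 (SE 0.189, edgeR adjusted p = 0.101) and did not pass. The median over the 8 genes was 3.003, against -0.07 over all genes tested.

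Without WT vehicle replicate 2 the number called was again 7. The log2 fold change was then 4.67 for Ms4a7, 3.83 for Ms4a6c, 3.81 for Ms4a6d, 3.21 for Ms4a14, 2.42 for Ms4a4a, 2.18 for Ms4a4c, 1.60 for Ms4a6b and -0.03 for Ms4a4b.

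In the mice labelled Pear1-/-, 6 of the 8 genes rose with bleomycin and 1 fell. The bleo libraries are again those of the comparison that drew attention to the set. Among all genes tested 8.37% were called higher and 19.3% lower. Ms4a6d was 10.0-fold higher (log2 fold change 3.33, SE 0.107, edgeR adjusted p = 5.16e-15) and Ms4a4a 6.21-fold (2.63, SE 0.126, edgeR adjusted p = 1.54e-12). Ms4a14 rose by 2.09 on the log2 scale (SE 0.315, edgeR adjusted p = 2.04e-05), Ms4a6c by 2.07, Ms4a7 by 1.88 and Ms4a4c by 1.46. Ms4a6b had a log2 fold change of 0.13 (SE 0.134, edgeR adjusted p = 0.402). Ms4a4b fell 4.29-fold (log2 fold change -2.10, SE 0.197, edgeR adjusted p = 7.19e-07). The median over the 8 genes was 1.97, against -0.05 over all genes tested.

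Set side by side, the log2 fold change with bleomycin was 4.59 in WT and 1.88 in the mice labelled Pear1-/- for Ms4a7, a difference of -2.71. It was -1.73 for Ms4a4b, -1.52 for Ms4a14, -1.501 for Ms4a6c and -1.22 for Ms4a6b. It was smaller for Ms4a6d (-0.52), Ms4a4c (-0.52) and Ms4a4a (0.20). Without WT vehicle replicate 2 the difference was -2.79 for Ms4a7, -2.08 for Ms4a4b, -1.75 for Ms4a6c, -1.47 for Ms4a6b and -1.12 for Ms4a14, which moved from the third most negative to the fifth. It was then -0.72 for Ms4a4c, -0.48 for Ms4a6d and 0.21 for Ms4a4a. These differences contain the contrast that drew attention to the set and carry no test.

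**Figure D2:**
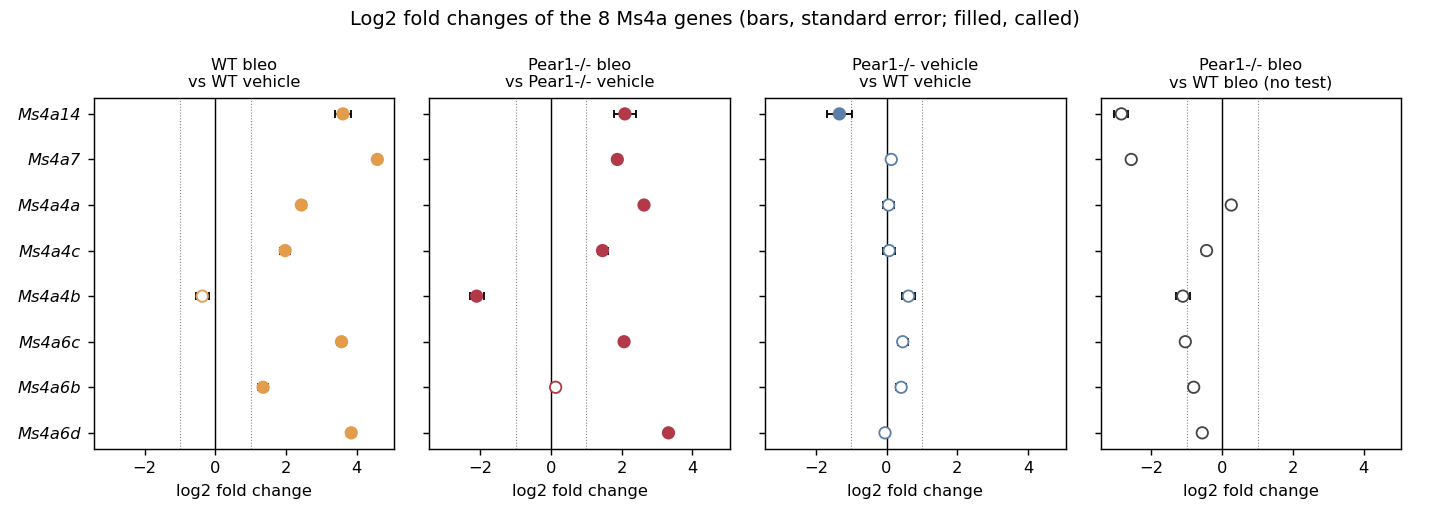
Log2 fold change (x axes) of the 8 genes in 4 comparisons; points are estimates, bars the standard error, dotted lines a fold of 2 in either direction, and filled points the genes called. With bleomycin, 7 genes lie to the right in WT and 6 in those labelled Pear1-/-; the rightmost panel, the comparison that chose the set, has no test.

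With vehicle alone, 1 of the 8 genes was called between the genotypes. Libraries labelled Pear1-/- vehicle against WT vehicle do not enter the choice of the set. This gene was Ms4a14, with a log2 fold change of -1.33 (SE 0.359, edgeR adjusted p = 0.0395), and among all genes tested 3.25% were called lower. Its groups did not overlap, at 10.9 to 13.9 against 14.2 to 48.1 normalized counts, but these are 10 to 42 reads a library. With any 1 of the 11 libraries other than WT vehicle replicate 2 left out, the edgeR adjusted p of Ms4a14 was 0.0504 to 0.223 and it was not called. By limma on the normalized counts the adjusted p of Ms4a14 was 0.117. An unadjusted p under 0.05 was reached by 4 of the 8 genes in edgeR with all 12 libraries, in limma and in edgeR with the 6 vehicle libraries alone, against 31.4%, 28.2% and 19.4% of all genes tested.

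WT vehicle replicate 2 was singled out from these same counts for its likeness to the group compared here. Leaving it out therefore favours a wider difference, and fewer WT vehicle libraries remain. The share of all genes that pass in that fit is not given, so its adjusted p-values are descriptions only. Without WT vehicle replicate 2, Ms4a14 had a log2 fold change of -1.73 (edgeR adjusted p = 3.34e-06). Ms4a4b was then at 0.96 (edgeR adjusted p = 4.37e-10), Ms4a6c at 0.71 (edgeR adjusted p = 8.56e-05) and Ms4a6b at 0.67 (edgeR adjusted p = 6.75e-08), all under a fold of 2. With all 12 libraries these 3 had adjusted p-values of 0.0526, 0.0513 and 0.0704 by edgeR. Ms4a4a, Ms4a4c, Ms4a6d and Ms4a7 lay between -0.04 and 0.13 on the log2 scale with all 12 libraries and were not called. Without WT vehicle replicate 2 they were at 0.048, 0.28, -0.079 and 0.21, also not called. The T cell list moved beside Ms4a4b: its 8 markers summed to 1180.3 and 1243 normalized counts in WT vehicle libraries other than replicate 2, to 2022 in that library, and to 2025 to 2219.8 in those labelled Pear1-/- vehicle. Other lists split in the same way: in 10 of 11 lists WT vehicle replicate 2 and the libraries labelled Pear1-/- vehicle all had larger sums than the other WT vehicle libraries. The neutrophil list split most, with 4402 and 4476 in those WT vehicle libraries, 15352 in replicate 2 and 14344 to 18119 in those labelled Pear1-/- vehicle. The part of these cells in the result was not tested.

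After bleomycin, the libraries labelled Pear1-/- had lower counts than WT for 7 of the 8 genes, and higher counts for Ms4a4a, with no overlap between the groups. Among all genes tested, 31.6% were lower and 31.3% higher without overlap. Ms4a14 was 7.22-fold lower (log2 fold change -2.85) and Ms4a7 5.95-fold lower (-2.57). Ms4a4b (-1.11) and Ms4a6c (-1.04) also lay beyond a fold of 2, as did 11.5% of all genes tested in that direction. Ms4a6b was at -0.81, Ms4a6d at -0.56, Ms4a4c at -0.44 and Ms4a4a at 0.26. The median over the 8 genes was -0.93, against -0.01 over all genes tested.

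The make-up of the cluster's counts differed between the bleo groups. The 8 genes summed to 7705 ± 53.1 normalized counts in WT bleo and 3382 ± 17.8 in those labelled Pear1-/- bleo, against 1164 ± 247 and 1486 ± 127 with vehicle (SD, n = 3). Ms4a7 made up 36.9% ± 0.240 of the sum in WT bleo and 14.2% ± 0.666 in those labelled Pear1-/- bleo. Ms4a6d made up 21.1% ± 0.676 and 32.8% ± 0.571, and Ms4a4a 3.15% ± 0.0664 and 8.65% ± 0.437. Ms4a4b, which made up 24.0% ± 3.82 of the sum in WT and 29.8% ± 0.785 in those labelled Pear1-/- with vehicle, made up 2.87% ± 0.186 and 3.05% ± 0.125 with bleo. Without WT vehicle replicate 2, the other WT vehicle libraries had sums of 987 and 1060.1, of which Ms4a4b made up 20.4% and 23.7%.

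**Figure D3:**
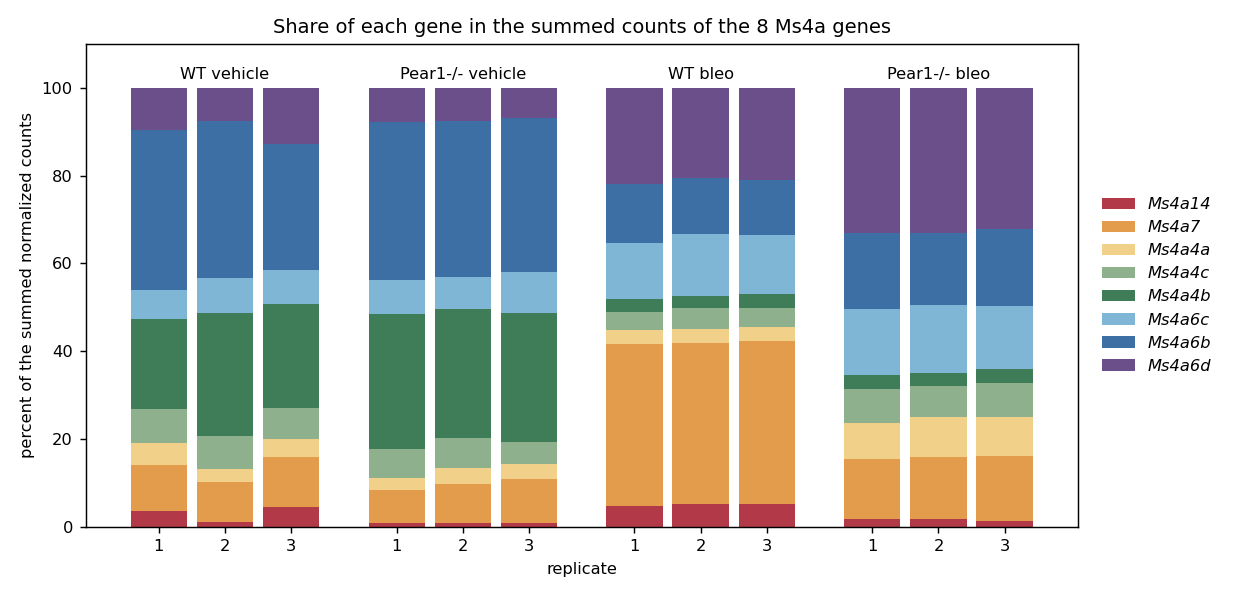
Share of each gene (y axis, percent) in the summed normalized counts of the 8 genes, 1 bar for each of the 12 libraries. The Ms4a7 segment is 36.6% to 37.1% of the bar in WT bleo and 13.6% to 14.9% in the libraries labelled Pear1-/- bleo.

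Leukocyte, macrophage and other cell type markers moved with these groups, in cells sorted for Pdgfra. Ptprc, the gene of CD45 on all leukocytes, stood at 3303 ± 479 normalized counts in WT vehicle, 3818 ± 263 in those labelled Pear1-/- vehicle, 7616 ± 97.8 in WT bleo and 3365 ± 109 in those labelled Pear1-/- bleo. Pdgfra itself had 4565 ± 325, 4165 ± 39.1, 1360.1 ± 29.9 and 2392 ± 18.8. The 10 macrophage markers summed to 157411 to 158107 normalized counts in WT bleo libraries and 60386 to 62397 in those labelled Pear1-/- bleo, against 16512 to 19814 in the 6 vehicle libraries. Of these 10, 9 were called higher with bleomycin in each genotype, against 10.5% of all genes tested in WT and 8.37% in those labelled Pear1-/-. Likewise 9 were more than 2-fold below WT bleo in those labelled Pear1-/- bleo, against 11.5% of all genes tested. None of the macrophage, monocyte or T cell markers was at 0 in a group. Other lists differed between the bleo groups too. The 6 dendritic cell markers summed to 4421 to 4734 in WT bleo and 1904 to 1999 in those labelled Pear1-/- bleo, mostly through Itgax (means of 3439 and 1189). The 6 B cell markers summed to 5737 to 5963 and 4131 to 4253, and the 6 neutrophil markers, in the opposite direction, to 1476 to 1597 and 2266 to 2331. The 5 epithelial markers summed to 12283 to 12496 and 5620.0 to 5719, which rests on Sftpc (6394 and 1610.2) and Scgb1a1 (5326 and 3331), while Cdh1 had 288 and 383 and Krt8 165 and 174. The 9 fibroblast markers summed to 112086 to 113151 and 290194 to 299859, mostly through the collagen genes Col1a1 (42471 and 142173), Col1a2 (23269 and 63672) and Col3a1 (32088 and 72242). The part of these cells in the results above was not tested.

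Counts per Ptprc count show the members against this leukocyte gene, and the lower Ptprc count raises every gene alike in the libraries labelled Pear1-/- bleo. Over all genes tested the median ratio of those libraries to WT bleo was 2.25 on this scale, with 79.8% of genes higher and 3.18% lower without overlap. Ms4a14 had 4.94, 5.25 and 5.26 counts per 100 Ptprc counts in WT bleo and 1.85, 1.75 and 1.26 in those labelled Pear1-/- bleo, a 3.18-fold difference between means. Ms4a7 had 37.8, 36.3 and 37.8 in WT bleo and 13.4, 14.9 and 14.8 in those labelled Pear1-/- bleo, a 2.60-fold difference. Neither gene's groups overlapped on this scale.

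Ms4a4a had 3.15, 3.18 and 3.22 counts per 100 Ptprc counts in WT bleo and 8.04, 9.31 and 8.76 in those labelled Pear1-/- bleo, 2.73-fold higher in the latter. Ms4a4c was 1.68-fold, Ms4a6d 1.55-fold, Ms4a6b 1.31-fold and Ms4a6c 1.11-fold higher, each without overlap, and Ms4a4b overlapped. Of the 8 genes, Ms4a4a alone lay above the median ratio of all genes. Per count of the macrophage markers, Ms4a14 was 2.79-fold and Ms4a7 2.28-fold lower in those labelled Pear1-/- bleo, and the other 6 were 1.20-fold (Ms4a4b) to 3.11-fold (Ms4a4a) higher, where the median over all genes tested was 2.57-fold higher, with 83.4% higher and 2.35% lower without overlap. These ratios rescale the comparison that chose the set, keep its order of genes and are descriptions.

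**Figure D4:**
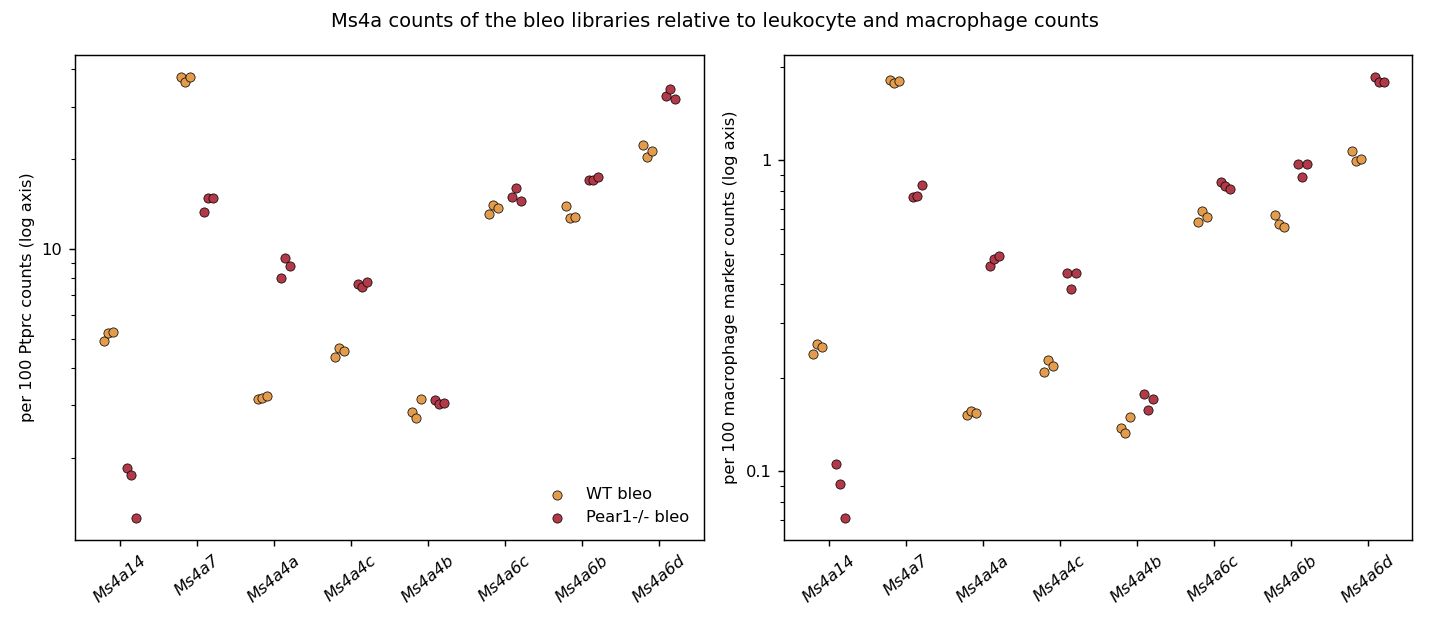
Counts of each gene per 100 Ptprc counts (left) and per 100 counts of the 10 macrophage markers (right) in the bleo libraries, on log y axes; each point is a library. Ms4a14 and Ms4a7 are lower in the libraries labelled Pear1-/- bleo on both scales; the other 6 genes are at or above the WT bleo libraries, with overlap for Ms4a4b on the left. Over all genes tested the median lies 2.25-fold (left) and 2.57-fold (right) above WT bleo.

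The members of the monocyte and alveolar macrophage lists split between the bleo groups. The 8 monocyte markers summed to 11805 to 12212 normalized counts in WT bleo and 5895 to 6032 in those labelled Pear1-/- bleo, and most of this difference lay in Ccr2 (means of 4618 and 1638) and Cx3cr1 (4189 and 1029). Ace (945 and 1654) and Plac8 (408 and 686) had higher means in those labelled Pear1-/- bleo, and Ly6c2 had 447 and 442. Of the 8 monocyte markers, 4 lay more than 2-fold lower in those labelled Pear1-/- bleo, against 11.5% of all genes tested. More than 2-fold higher were 0 of the 8. The 6 alveolar macrophage markers summed to 4693 to 4994 in WT bleo and 5935 to 6001 in those labelled Pear1-/- bleo, which rests on Chil3 (3147 and 5154). Ear2 (1426 and 645), Car4 (204 and 98.4) and Siglecf (90.6 and 49.3) had lower means in those labelled Pear1-/- bleo.

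The 8 T cell markers summed to 909.7 to 974 in WT bleo and 663 to 710.0 in those labelled Pear1-/- bleo. All 8 were called lower with bleomycin in the mice labelled Pear1-/-, where Ms4a4b was called lower too, against 19.3% of all genes tested. In WT 2 of the 8 were called lower, a share near the 23.3% of all genes tested.

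Over the 12 libraries the log2 CPM of the 7 members other than Ms4a4b correlated with each other at Pearson's r of 0.69 to 0.98, and Ms4a4b with each of them at -0.79 to -0.12. Ms4a7 and Ms4a14, direct neighbours, had an r of 0.94. The libraries share 4 groups, so these values describe the group pattern. Of 10445 genes compared, those most like Ms4a14 were Hpgds (r = 0.994), the hematopoietic prostaglandin D synthase, Ighm (0.993), the immunoglobulin M heavy chain, Rraga (0.993), Marcks (0.991) and Tbc1d9 (0.988). Hpgds had mean normalized counts of 143 in WT vehicle, 69.9 in those labelled Pear1-/- vehicle, 942 in WT bleo and 243 in those labelled Pear1-/- bleo. Those most like the mean of the 8 genes were Rassf4, Lilrb4a, Kctd12, Lpcat2 and Cysltr1, with an r of 0.996 to 0.997.

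Other Ms4a genes gave a comparison within the family. Of 11 further Ms4a genes in the table, 5 passed the filter. With bleomycin 1 of the 5 was called higher and 2 lower in each genotype. Among all genes tested, 10.5% were called higher and 23.3% lower in WT, and 8.37% and 19.3% in those labelled Pear1-/-. Between the vehicle groups their edgeR adjusted p-values were 0.0645 to 0.972. Between the bleo groups, described with no test, log2 fold changes were -1.82 for Ms4a2, -0.75 for Ms4a8a, -0.40 for Ms4a1 and 0.39 for Ms4a4d. Ms4a2 had 24 to 33 reads a library in WT bleo and 5 to 14 in those labelled Pear1-/- bleo. Ms4a3 had no reads in the bleo libraries. Ms4a4d lies among the 8 genes, between Ms4a6b and Ms4a6d, and its coding sequence was 85.4% identical to that of Ms4a4c. It fell with bleomycin.

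Ms4a4d had 1368, 1685 and 1480.2 normalized counts in WT vehicle and 319.6, 393 and 333 in WT bleo, a log2 fold change of -2.11 (SE 0.0908), and it was called. In the libraries labelled Pear1-/- it had 1742, 1854 and 1669 with vehicle and 460.0, 444 and 478 with bleo, a log2 fold change of -1.93 (SE 0.0888), also called. Pdgfra also had lower means with bleomycin in both genotypes. Of the genes on either side, Ms4a6d rose in both genotypes and Ms4a6b was called higher in WT only. Ms4a4b was called lower too in the mice labelled Pear1-/-. Of the 9 fibroblast markers, 6 were called lower with bleomycin in WT, against 23.3% of all genes tested. In the mice labelled Pear1-/-, 5 were called lower and 2 higher, against 19.3% and 8.37%. Which cells held the Ms4a4d counts was not tested.

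Ms4a8a, outside the span, rose in both genotypes, by 2.06 on the log2 scale in WT and 1.29 in those labelled Pear1-/-. Ms4a3, a gene of granulocyte and monocyte precursors, had 6.55 to 26.3 normalized counts in the vehicle libraries and 0 in all 6 bleo libraries, and was called lower in both. Ms4a1 (CD20) had 608 ± 194, 881 ± 71.7, 1103 ± 80.2 and 842 ± 39.9 normalized counts in WT vehicle, those labelled Pear1-/- vehicle, WT bleo and those labelled Pear1-/- bleo (SD, n = 3), and was not called with bleomycin in either genotype. In WT it was 1.82-fold higher with bleomycin (edgeR adjusted p = 0.000542) and missed the call on fold only. Its WT vehicle libraries had 486, 832 and 505, and this fold includes the high replicate 2. Tmem176a and Tmem176b, related genes outside the cluster, lay between 0.06 and 0.40 on the log2 scale with bleomycin and were not called. The value of 0.40, for Tmem176b in WT, had an edgeR adjusted p of 2.74e-05 and missed the call on fold only.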

How the data were processed

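Processed tables of 12 libraries were analysed. By the study's methods, full-length cDNA was made with SMART-Seq v4 and libraries with TruePrep V2, sequenced paired-end and aligned by the authors with HISAT2 to GRCm38 (mm10). FastQC is named in the submitters' processing notes. The counting program is not given in the sources used here, and the kits do not mark strand. The authors deposited raw counts per gene, and a second table of signal that equals the raw count divided by a DESeq2 size factor of the library, called normalized counts in the text. No other columns were used.

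Raw counts were fitted with edgeR 4.0.16 (R 4.3.3, limma 3.58.1) in one quasi-likelihood model over all 4 groups, with TMM scaling and filterByExpr. A call needed a Benjamini-Hochberg adjusted p under 0.05 over all 17418 genes and a fold above 2. The fit was tested on simulated data. Alternatives were DESeq2 1.42.0, limma on log2(normalized count + 1), RLE scaling, no filter, only the groups compared, a replicate block and each library left out, with the genes tested kept. Of the table's gene identifiers, 99.1% were in GENCODE M21, which gave lengths and coordinates; promoters were from RefSeq (GRCm38.p6). Shares and motif matches were computed in Python 3.11.15 with Biopython 1.88. At these depths, 3 counts correspond to 0.287 to 0.448 CPM, which covers counting error only.

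The genes named were the 8 members, the rest of the family, Pear1, Pdgfra, Ptprc, and the 5 genes most like Ms4a14 and the 5 most like the mean of the members by Pearson's r, with a mean of at least 3 log2 CPM. The members and lists were chosen with earlier results of these data known.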

Additional observations from a re-analysis of the deposited data

How the results depend on the processing

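The numbers of genes called with bleomycin, 7 in WT and 7 with the label Pear1-/-, were the same under every alternative run: DESeq2, limma, RLE scaling, no filter on low counts, only the 6 libraries of the groups, the replicate block, no fold criterion and each library left out. Between the vehicle groups the 1 call became 0 by limma on log2(normalized + 1) and 0 in edgeR with only the 6 libraries, and ran from 0 to 1 with each library left out. The members with an unadjusted p under 0.05 numbered 4 in each of these fits, by edgeR with all 12 libraries, by limma and by edgeR with 6, where 31.4%, 28.2% and 19.4% of all genes tested had one. Ms4a14 was then at -1.15 and -1.37 on the log2 scale, and from -1.73 to -0.93 with each library left out. DESeq2, RLE scaling, no filter and the replicate block gave 1. The replicate block changed none of these counts, 7, 7 and 1. Same-numbered libraries did not deviate together (r from -0.16 to 0.10 over genes), and no library correlated best with its own number.

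Between the vehicle groups, small values changed sign: Ms4a6d (-0.04) was 0.053 with no filter and ran from -0.14 to 0.11 with each library left out, Ms4a4c from -0.054 to 0.28 and Ms4a4a from -0.12 to 0.17. Between the bleo groups, scaling to Ptprc moved the median of all genes to 1.17 and with it Ms4a4b to 0.078, Ms4a4c to 0.75, Ms4a6b to 0.39, Ms4a6c to 0.15 and Ms4a6d to 0.63. Scaling to the macrophage markers moved that median to 1.36 and these genes to 0.27, 0.94, 0.57, 0.34 and 0.82. These changes of sign follow from the scaling, and all 5 genes stayed below the median of all genes. Depth limits Ms4a14 with vehicle, at 10 to 42 reads. RLE scaling moved the median of all genes by less than 0.1 (log2) in each comparison.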
